A study of Homo sapiens with 2 samples.

Results

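The m6A writer and eraser genes comprise 8 subunits of the nuclear methyltransferase complex (METTL3, METTL14, WTAP, VIRMA, RBM15, RBM15B, ZC3H13 and CBLL1) and 2 demethylases (FTO and ALKBH5). IGF2BP3 peaks on their transcripts were taken as all peaks that share at least 1 bp with the span of any of these 10 genes in the GENCODE 44 annotation of hg38. There were 23 such peaks among 21142 in replicate 1 and 19 among 20799 in replicate 2. Both replicates are of the cell line OE-19, established from a tumour at the junction of esophagus and stomach (adenocarcinoma), for which the labels name no treatment, crosslinked with UV before IGF2BP3 was immunoprecipitated. The libraries were made by LACE-seq, in which the ends of cDNA copied from the bound RNA are amplified linearly and sequenced. No input or control antibody library was analysed here, so a peak marks recovered RNA and is not corrected for how much of each transcript the cells hold.

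N6-methyladenosine (m6A) is deposited on mRNA in the nucleus, mainly at a DRACH sequence. METTL3 carries the catalytic site, METTL14 holds the RNA beside it, and WTAP, VIRMA, ZC3H13, CBLL1, RBM15 and RBM15B form or recruit the regulatory part of the complex. FTO and ALKBH5 are dioxygenases that remove the methyl group. IGF2BP3 is an oncofetal RNA-binding protein that is described as a reader of m6A and stabilizes mRNAs.

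IGF2BP3 peaks were concentrated on the transcripts of the scaffold subunits VIRMA and ZC3H13, which held 16 of the 23 peaks of replicate 1 and 12 of the 19 of replicate 2. Of the 10 genes, 7 had a peak in both replicates and 5 had a pair of peaks that overlapped between replicates (METTL3, VIRMA, ZC3H13, CBLL1 and ALKBH5). Where summits had to lie within 50 bp of each other, 3 of these genes kept a pair (VIRMA, ZC3H13 and ALKBH5), and the mean share of paired peaks was 33.6% in place of 57.7%. Among peaks with a −log10 q of at least 10, 5 members had a peak in both replicates and 4 had a pair. With the summit required inside the gene, these counts were 6 and 4. METTL3 lost its pair under both rules. FTO and RBM15B had a peak in each replicate at different places, WTAP and RBM15 had a peak in a single replicate, and METTL14 had none. Over all 20046 protein-coding genes, 41.0% had a peak in replicate 1 and 42.2% in replicate 2, against 8 of 10 members in each. Both replicates had a peak in 34.7% of protein-coding genes and an overlapping pair in 30.5%. These shares are for peaks of any q-value paired by at least 1 bp. No background share is given for the stricter rules above, of genes or of paired peaks, so those member counts have no counterpart here. The background includes genes that these cells do not express, and RNA levels were not measured here. The median canonical transcript was 2885 nt long over all protein-coding genes and 3562.5 nt over those with an overlapping pair. Those of the members ran from 1980 nt (METTL3) to 11573 nt (FTO), and the part of length in these shares was not tested.

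Sequences under some of the 12 overlapping pairs are shown first, since they are stretches that both replicates recovered. The choice favours GGAC. The stretches extracted but not shown (ZC3H13 exons 14 and 15 and ALKBH5 exon 4) held no GGAC. Those of ZC3H13 exon 15 and ALKBH5 exon 4 held no DRACH match either, and no stretch of VIRMA is shown. Each is hg38 sequence on the gene strand, 5′ to 3′, in lower case with every DRACH match in capitals (D stands for any base but C, R for a purine, H for any base but G). The coding stretches reach 30 bases beyond the summits of both replicates or to the end of the exon, and 30 bases midway between the summits are shown for METTL3 and ALKBH5. The stretch of ZC3H13 exon 12 belongs to the strongest pair, that of exon 10 holds GGAC, the core of the UGGAC motif, and those of CBLL1 and METTL3 belong to the genes with 1 pair, and that of ALKBH5 exon 1 lies near the start of the coding sequence and holds GGAC.
ZC3H13 exon 12, CDS, minus strand, chr13:45975542-45975722: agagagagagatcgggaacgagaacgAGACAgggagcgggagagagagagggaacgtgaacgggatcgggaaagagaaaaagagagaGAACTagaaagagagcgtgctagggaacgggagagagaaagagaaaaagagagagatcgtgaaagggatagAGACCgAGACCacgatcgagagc
ZC3H13 exon 10, CDS, minus strand, chr13:45985716-45985761: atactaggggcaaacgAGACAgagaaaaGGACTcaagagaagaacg
CBLL1 exon 6, CDS, plus strand, chr7:107758399-107758556: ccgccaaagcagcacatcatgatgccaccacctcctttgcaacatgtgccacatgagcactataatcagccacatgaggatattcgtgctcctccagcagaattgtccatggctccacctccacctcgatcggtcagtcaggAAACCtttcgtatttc
ALKBH5 exon 1, CDS, plus strand, chr17:18184252-18184281: cgccagcggctacacGGACCtgcgtgagaa
METTL3 exon 1, 5′ UTR, minus strand, chr14:21511273-21511302: ggctatatcctggagcgagtgctgggaggt

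**Figure D1:**
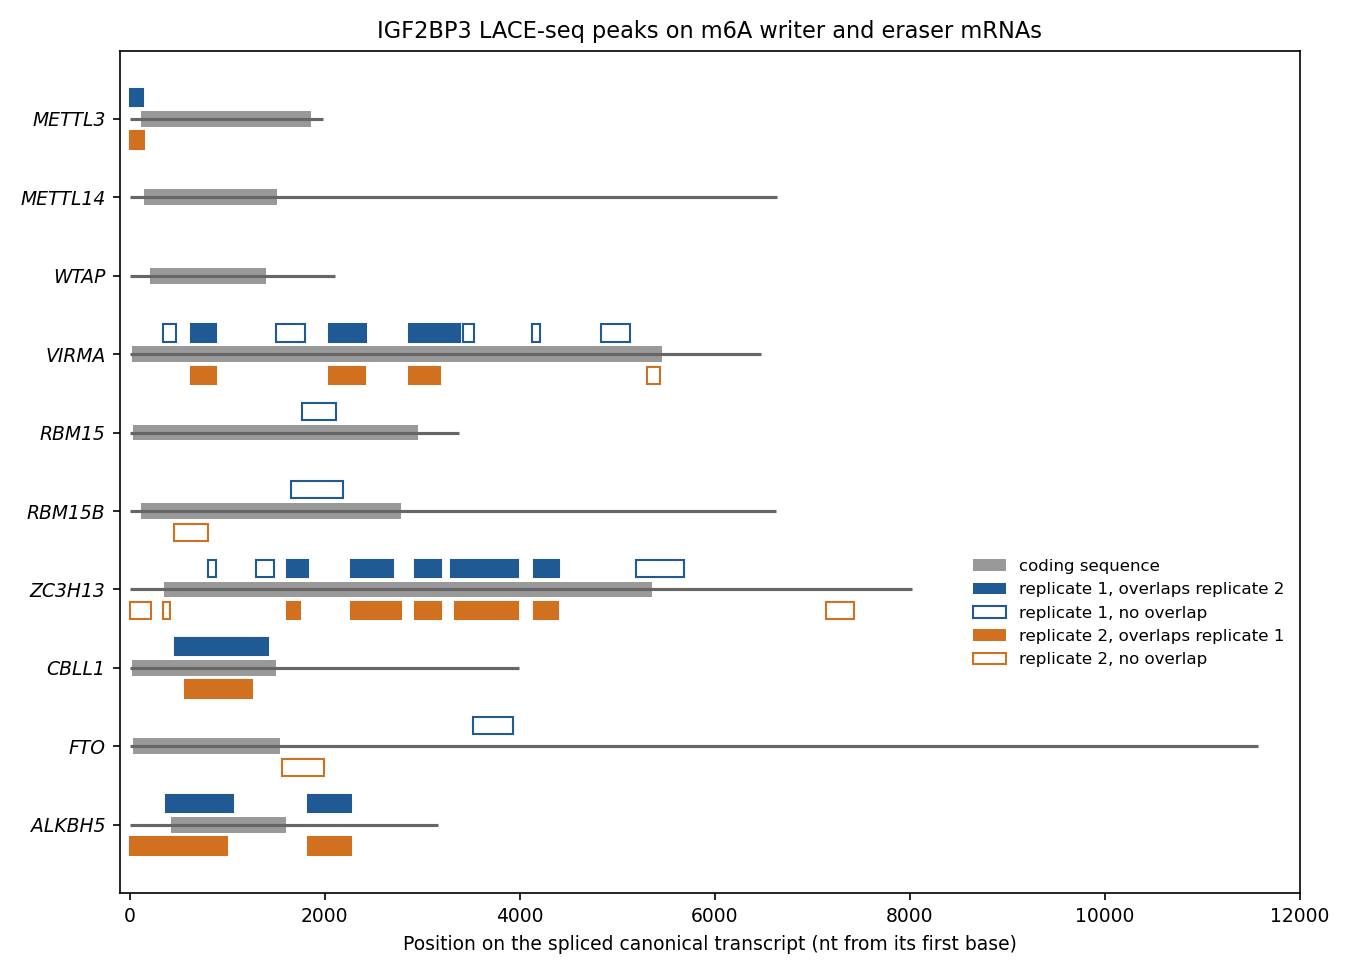
Peaks on the spliced canonical transcript of each gene, with the position in nt from the first base of the transcript on the horizontal axis. Peaks of replicate 1 are drawn above the transcript and those of replicate 2 below, filled where they overlap a peak of the other replicate, and parts of a peak in introns or upstream of the transcript are left out, so the WTAP peak is not drawn. The exonic parts of the overlapping pairs of VIRMA (3) and ZC3H13 (5) lie within the coding sequence.

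ZC3H13, a zinc finger protein that anchors the complex in the nucleus, had 8 peaks in each replicate and 5 overlapping pairs, the most of any member. Of the 6124 protein-coding genes with an overlapping pair, 8.62% had at least 5. The gene lies on the minus strand of chromosome 13, from 45954465 to 46052759. Its pairs fell on exons 10, 12, 14 (2 pairs) and 15 of the 19 exons of the canonical transcript, and all summits of these pairs were in coding sequence (CDS). Except for the pair at 45968920 to 45969565, the shared stretches also reached beyond the exon. On exon 10, 135 of the 305 shared bp were in CDS, and on exon 12, 432 of 589.

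The strongest pair was on exon 12, at 45975407 to 45976028 in replicate 1 and 45975326 to 45975995 in replicate 2. Its fold enrichment, which the authors' peak caller gives as the summit over the local background, was 19.1 in replicate 1 and 13.3 in replicate 2, or percentiles 99.7 and 94.6 of the lists. The number of reads piled up at the summit, recovered from the deposited fold and p-value, was 111 and 53. These were the largest fold and pileup of any member peak in replicate 1 and the largest pileup in replicate 2, while the largest fold of replicate 2 was on VIRMA exon 7. The summits lay 120 bp apart, so both positions are covered by the printed stretch. In that stretch, 83.4% of the bases were purines and no GGAC was present. Within 50 nt of the summits, 85.1% and 82.2% of bases were A or G, higher than in 99.9% of all peaks on protein-coding genes, whose median was 48.5% in both replicates. The median over all member peaks was 49.5% in both replicates, so the purine share of this pair was not a trait of the member peaks as a set.

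The pair on exon 15 (shared stretch 45967782 to 45968142) had summits 2 bp apart. Its fold was 9.66 in replicate 1 and 5.82 in replicate 2, and its pileup 78 and 32 reads. Exon 14, at 1224 nt the longest internal exon of the gene, carried a pair at 45968920 to 45969565 with folds of 8.07 and 7.42 and pileups of 65 and 40 reads. The summits of this pair were 121 bp apart, and the purine share of the window was 59.4% in replicate 1 but 26.7% in replicate 2. The other pair on exon 14, at 45969708 to 45970028, had summits 5 bp apart and the lowest fold among the replicate 1 pairs, 4.03 against 5.22 in replicate 2, with 32 and 28 reads. The pair on exon 10 (45985627 to 45985931) had folds of 9.96 and 10.6 and 25 and 18 reads, with summits 10 bp apart. Thus pairs of the same transcript ranged from percentile 6.45 to 99.7 of fold enrichment in replicate 1 and from 15.5 to 94.6 in replicate 2.

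The remaining ZC3H13 peaks were found in 1 replicate each, with 8 to 27 reads at the summit. Those of replicate 1 were on exon 19 with the summit 69 nt before the stop codon (fold 6.82, 27 reads), on exon 9 (fold 9.36, 24 reads) and at exon 6 with the summit in the intron (fold 6.93, 11 reads). Those of replicate 2 were in the 3′ UTR (fold 5.58, 10 reads), at exon 2 with the summit in the intron (fold 6.42, 9 reads) and in the 5′ UTR (fold 6.51, 8 reads), where the antisense lncRNA gene CPB2-AS1 overlaps. Without strand, that last peak could come from either gene.

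VIRMA, the large scaffold that directs methylation towards 3′ ends of mRNAs, had 8 peaks in replicate 1, 4 in replicate 2 and 3 overlapping pairs. At least 3 pairs were found in 27.1% of the protein-coding genes with a pair. The gene is on the minus strand of chromosome 8, from 94487689 to 94553529. On exon 7 the fold was 13.6 in replicate 1 and 14.3 in replicate 2, with 61 and 46 reads at summits 9 bp apart. The summit of replicate 1 lay in the intron beside this exon and that of replicate 2 in CDS. No peak on a protein-coding gene was narrower than 293 bp in replicate 1 or 294 bp in replicate 2. A difference of class between summits 9 bp apart therefore carries little weight.

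On VIRMA exon 9 the summits were 1 bp apart, but the fold was 15.3 in replicate 1 and 8.92 in replicate 2, and the pileup 52 and 15 reads. On exon 13 the folds were 8.68 and 6.71 and the pileups 42 and 13 reads, with summits 41 bp apart. These 2 sites therefore kept their position while the pileup in replicate 2 was 0.288 and 0.310 of that in replicate 1, the lowest ratios of all member pairs. The 5 peaks of replicate 1 without a partner were at exons 22, 17, 14, 8 and 5, with folds from 4.80 to 9.19 and pileups from 16 to 37 reads. At exons 17, 14 and 5 the summit was in the intron. The single unpaired peak of replicate 2 was at the last exon, with a fold of 9.19 and 19 reads, and its summit was in the intron before that exon.

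In both scaffold transcripts the paired sites were on long exons. The exons under a pair were 273 to 545 nt long in VIRMA and 465 to 1224 nt in ZC3H13. The exons without a peak in either list had a median length of 123 nt in VIRMA (15 exons) and 155.5 nt in ZC3H13 (10 exons), and the longest of them were 253 and 201 nt. The longest exon of each gene, the last one (1172 nt in VIRMA and 2833 nt in ZC3H13), held no pair. Exon 8 of VIRMA (1141 nt) held none either. Exons under a peak of either list, paired or not, were as short as 133 nt in VIRMA and 126 nt in ZC3H13. A long exon offers more positions for a peak, and the part of exon length in these counts was not tested.

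**Figure D2:**
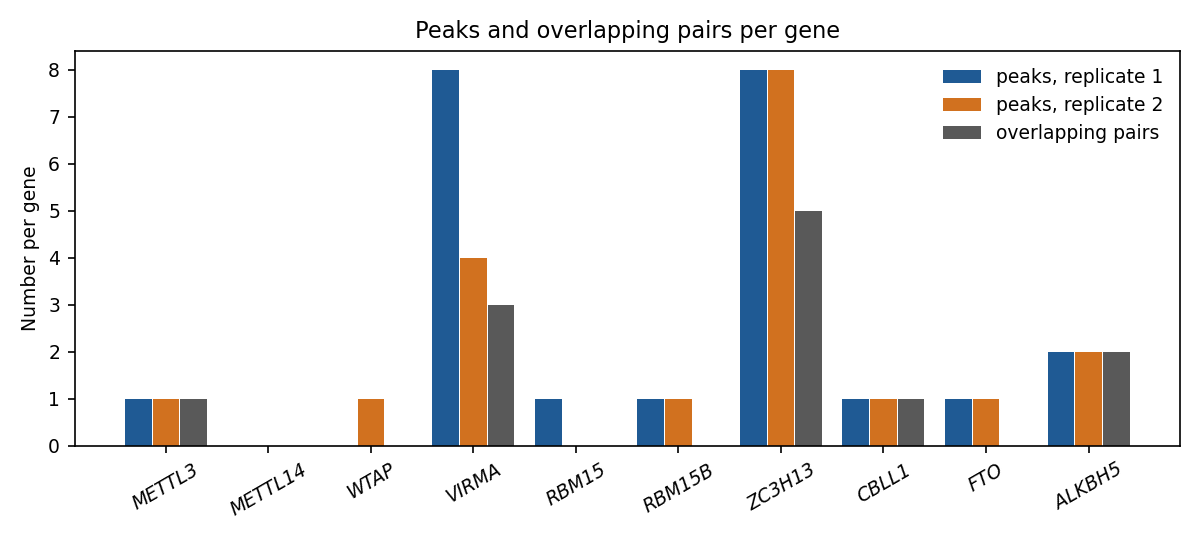
Number of peaks in replicate 1, of peaks in replicate 2 and of overlapping pairs for each gene (vertical axis, number per gene). VIRMA and ZC3H13 have 4 to 8 peaks in each replicate and the other genes 0 to 2.

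The core subunits METTL3, METTL14 and WTAP had at most 1 peak in a replicate, and none with more than 9 reads at the summit. METTL3 (chromosome 14, 21498133 to 21511342, minus strand) had 1 peak in each replicate over its first exon, spanning 21511203 to 21511495 in replicate 1 and 21511193 to 21511486 in the other. The fold was 6.81 in replicate 1 and 5.06 in replicate 2, at percentiles 48.3 and 13.8, with 9 and 6 reads at the summit. Of these peaks, 153 and 144 bp lay upstream of the annotated gene, and the summit of replicate 1 was among those bases. Their widths, 293 and 294 bp, were the smallest of any peak on a protein-coding gene in each list. The summits were 119 bp apart, and exon 1 held 138 and 148 bp of the peaks. No other METTL3 exon had a peak.

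METTL14 (chromosome 4, 118685392 to 118715433), whose canonical transcript is 6642 nt long, had no peak in either list. The smallest pileup of any peak in the series was 4 reads, so binding below the caller's threshold would not be seen. WTAP (chromosome 6, 159725585 to 159756319), which brings METTL3 and METTL14 to nuclear speckles, had 0 peaks in replicate 1 and 1 in replicate 2, from 159741656 to 159741950, with a fold of 6.65 and 8 reads. This peak lay in an intron of the canonical transcript and on an exon of other WTAP transcripts. The gene SOD2 covers the site on the opposite strand, so its origin is uncertain.

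Among the subunits that recruit the complex to RNA, RBM15 and RBM15B had peaks in CDS that did not recur. RBM15 (chromosome 1, 110338506 to 110346681) had a peak in replicate 1 from 110341140 to 110341494, with a fold of 6.76 and 22 reads, and none in replicate 2. RBM15B (chromosome 3, 51391285 to 51397908), a gene of a single exon, had a peak from 51392936 to 51393469 in replicate 1 (fold 4.57, 21 reads) and another from 51391740 to 51392084 in replicate 2 (fold 5.31, 24 reads). The RBM15B peaks stood at percentiles 11.1 and 16.7 of fold enrichment.

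CBLL1, also known as HAKAI, encodes a ubiquitin ligase of the complex and had 1 overlapping pair on chromosome 7. The peak of replicate 1 spanned 107758131 to 107759096 and that of replicate 2 spanned 107758242 to 107758932. The summits were 97 bp apart in the CDS of exon 6, the last and longest exon (3525 nt). The fold was 8.52 in replicate 1 and 12.6 in replicate 2, at percentiles 74.8 and 93.0 of their lists. The pileup was 32 and 26 reads. At 966 bp the peak of replicate 1 was the widest of its list among the member peaks.

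The erasers differed in whether their sites recurred. ALKBH5 (chromosome 17, 18183078 to 18209954, plus strand) had 2 peaks in each replicate, and both sites overlapped. The site in its 3′ UTR covered nearly the same bases in both lists, 18208621 to 18209064 and 18208618 to 18209064, with folds of 10.2 and 9.13 and 31 and 28 reads. The summits lay 515 and 466 nt after the stop codon on the mRNA, 49 bp apart. This pair had the pileup ratio nearest to 1 of all member pairs, 0.903. The windows around its summits were poor in purines (34.7% and 29.7%, percentiles 5.93 and 1.75), at the other end of the range from ZC3H13 exon 12.

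The site in ALKBH5 exon 1 was less precise. The peak of replicate 1 ran from 18184200 to 18184886 with the summit in CDS (fold 9.54, 27 reads), and that of replicate 2 from 18183475 to 18184823 with the summit in the 5′ UTR (fold 7.48, 21 reads), 541 bp away. The printed stretch of ALKBH5 lies between these summits, more than 50 nt from either, and holds GGACC. A lncRNA gene, ENSG00000266677, overlaps this exon on the opposite strand.

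FTO (chromosome 16, 53701692 to 54158512, plus strand) had 1 peak in each replicate, both in the 10180-nt last exon and both in the 3′ UTR. The peak of replicate 2, from 54111925 to 54112361, had its summit 293 nt after the stop codon, with a fold of 9.79 and 18 reads. The peak of replicate 1, from 54113889 to 54114293, had its summit 2112 nt after the stop codon, with a fold of 7.67 and 17 reads. Both lists thus placed FTO peaks in the same 3′ UTR, at sites that do not overlap.

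**Figure D3:**
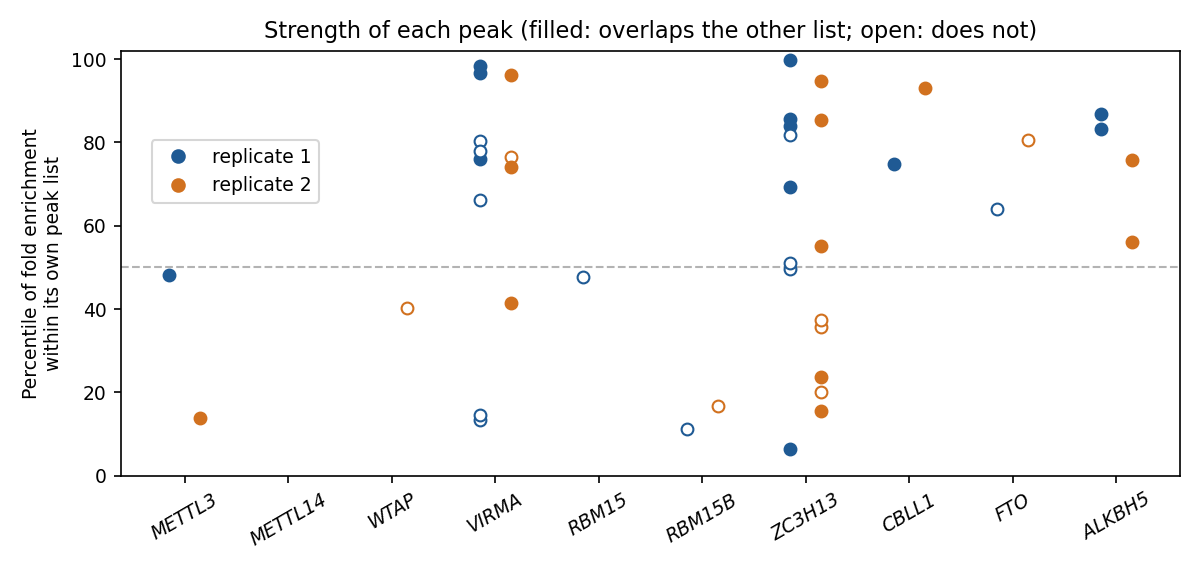
Percentile of fold enrichment of each member peak within its own list (vertical axis, 0 to 100), by gene and replicate. Filled points overlap a peak of the other replicate and open points do not, and the dashed line marks the middle of the list. ZC3H13 spans the range from 6.45 to 99.7 in replicate 1.

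Over all member peaks, fold enrichment was at a median percentile of 74.8 in replicate 1 (23 peaks) and 55.1 in replicate 2 (19 peaks), with a mean of 65.0 ± 14.0 (SD, n = 2). All peaks on protein-coding genes had median percentiles of 49.4 and 49.7. The median pileup was 27 and 19 reads, against 23 in both replicates for all peaks on protein-coding genes. By pileup in place of fold, the mean percentile was 52.3. Of the member peaks, 52.2% in replicate 1 (12 of 23, interval 33.0 to 70.8) and 63.2% in replicate 2 (12 of 19, interval 41.0 to 80.9) overlapped the other list. The shares over all peaks on protein-coding genes, 60.7% and 61.1%, lay within these intervals.

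All 12 overlapping pairs had fewer reads at the summit in replicate 2 than in replicate 1. Over all 13071 overlapping pairs of the series, 49.8% were lower in replicate 2, and the median ratio of replicate 2 to replicate 1 was 1. For the member pairs the median ratio was 0.693, with a range from 0.288 to 0.903. Among the 3423 pairs of the series with both summits in CDS, 48.1% were lower in replicate 2. The 4 member pairs outside VIRMA and ZC3H13 had ratios from 0.667 to 0.903. Fold enrichment was lower in replicate 2 in 8 of the 12 pairs, the exceptions being VIRMA exon 7, ZC3H13 exon 10, the weaker ZC3H13 exon 14 pair and CBLL1. Over all pairs of the series, fold enrichment was lower in replicate 2 in 42.6%. These counts set raw folds of the 2 lists side by side, a departure from the plan, which was to compare folds within a list only. Pairs of a gene share its RNA and are not independent, so no test was made of this difference.

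**Figure D4:**
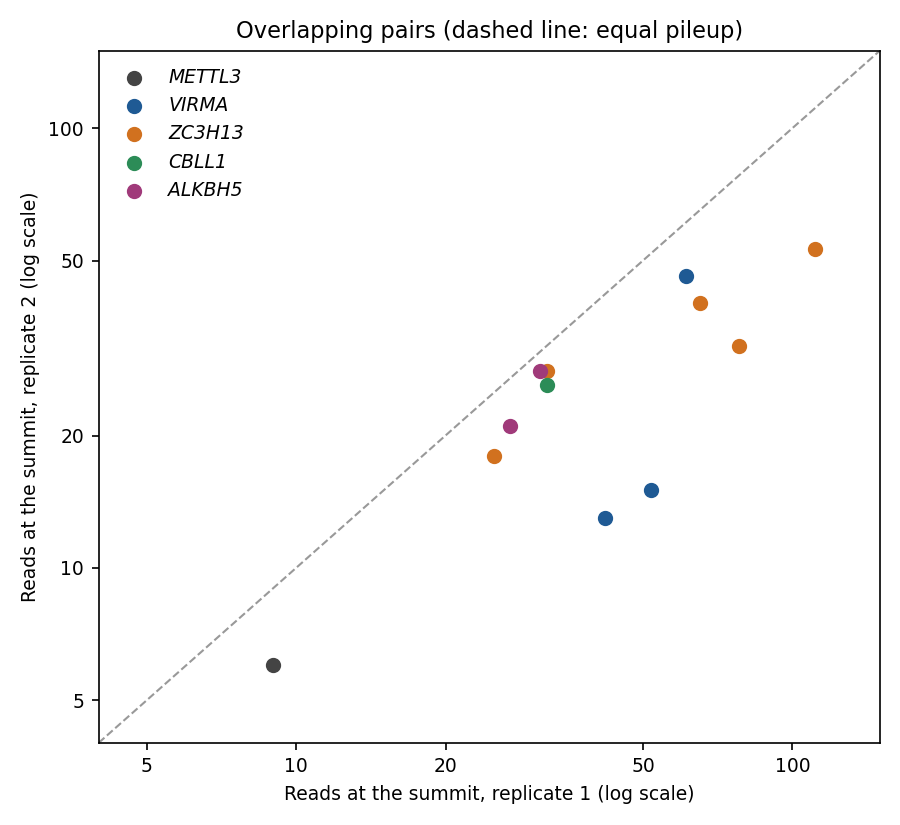
Reads piled up at the summit in replicate 1 (horizontal axis) and replicate 2 (vertical axis) for the 12 overlapping pairs, both on log scales, coloured by gene. Every pair lies below the dashed line of equal pileup, from METTL3 with 9 and 6 reads to ZC3H13 exon 12 with 111 and 53.

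The summits of member peaks lay mostly in CDS, with 65.2% in replicate 1 (15 of 23, interval 44.9 to 81.2) and 52.6% in replicate 2 (10 of 19, interval 31.7 to 72.7), a mean of 58.9% ± 8.90 (SD, n = 2). Over all peaks on protein-coding genes the CDS share was 33.2% and 33.6%, which is below the interval of replicate 1 and within that of replicate 2. The 3′ UTR share was 8.70% (2 of 23) and 15.8% (3 of 19), against 24.4% and 19.6% over all peaks. In 5′ UTRs there were 0 of 23 summits in replicate 1, which allows a share of up to 13.0%, and 3 of 19 (15.8%) in replicate 2, against 7.38% and 13.2% over all peaks. The summit was intronic in 5 peaks of replicate 1 (21.7%) and 2 of replicate 2 (10.5%), against 29.9% and 26.8% over all peaks. These 7 peaks were all on VIRMA or ZC3H13 and all reached into an exon of their gene, as did 75.6% and 77.1% of the intronic peaks over all protein-coding genes. Most CDS peaks belonged to VIRMA and ZC3H13, and without these genes the mean CDS share was 42.9% ± 20.2 (SD, n = 2). The mean 3′ UTR share without them was 28.6%, above that of all peaks rather than below it, from 7 peaks in each replicate.

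Few summits were near stop codons. Within 200 nt on the genome of an annotated stop codon lay 1 of 17 exonic summits in each replicate (5.88%, interval 1.05 to 27.0), ZC3H13 exon 19 in replicate 1 and FTO in replicate 2. The shares over all peaks, 20.8% and 18.9%, lay within the interval.

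**Figure D5:**
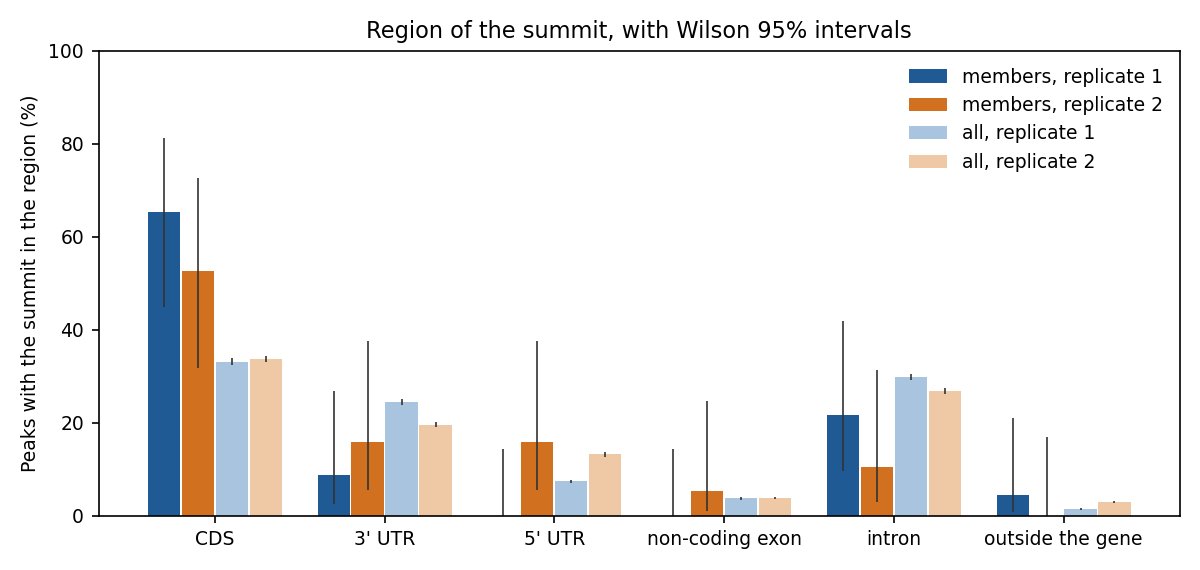
Share of peaks (%) whose summit lies in each region, for the member peaks and for all peaks on protein-coding genes in each replicate, with Wilson 95% intervals as vertical lines. The CDS bars of the members, 65.2% and 52.6%, stand above those of all peaks, 33.2% and 33.6%, and the intervals of the members are wide.

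To compare the sites with m6A motifs, the sequence within 50 nt of each summit was searched on the gene strand. GGAC was present in 9 of 23 windows in replicate 1 (39.1%, interval 22.2 to 59.2) and 7 of 19 in replicate 2 (36.8%, interval 19.1 to 59.0), against 28.9% and 32.1% over all peaks on protein-coding genes. UGGAC, which contains GGAC, was found in 2 and 1 windows, all in VIRMA (exons 22 and 8 in replicate 1 and exon 13 in replicate 2). DRACH was found in 73.9% and 73.7% of windows, against 80.8% and 76.4% over all peaks. The UGGAC share was 8.70% and 5.26%, against 9.97% and 10.1%. For GGAC, UGGAC and DRACH the shares over all peaks lay within the intervals of the members in both replicates. The pairs with GGAC in the windows of both replicates were ZC3H13 exon 10, whose GGACT is in the printed stretch, and ALKBH5 exon 1. The ALKBH5 summits were 541 bp apart, so their windows do not overlap and the GGAC matches are different sites. The GGACC of the printed ALKBH5 stretch is in neither window.

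Other genes of the m6A pathway were examined as a list of 20 further methyltransferases, cofactors and readers. Of these, 14 had a peak in both replicates and 13 had an overlapping pair, against 34.7% and 30.5% of all protein-coding genes, and 5 had no peak. METTL16, the methyltransferase of U6 snRNA and MAT2A mRNA, had 1 peak in each replicate that did not overlap, with folds of 4.58 and 5.60. The genes with the most pairs were EIF3A, a translation initiation factor subunit (5 pairs among 8 and 7 peaks), the cytoplasmic reader YTHDF3 (4 pairs among 4 and 4 peaks) and IGF2BP2, a paralog of IGF2BP3 (3 pairs among 3 and 5 peaks). The number of pairs on EIF3A thus equalled that on ZC3H13.

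The label of the cells was checked against markers. All 8 epithelial markers (EPCAM, KRT8, KRT18, KRT19, CDH1, CLDN4, MUC1 and ERBB2) had an overlapping pair. Of 11 markers of blood, fibroblasts and endothelium, 8 had no peak in either list and only CD68 had an overlapping pair. PTPRC had a peak in replicate 1 alone and COL1A1 in replicate 2 alone. Over all protein-coding genes, 41.0% had a peak in replicate 1, 42.2% in replicate 2 and 30.5% an overlapping pair. Many genes thus have no peak, and absence of a peak from a marker carries little weight. The 31-mer at the summit of each of the 42 member peaks occurred once in the genome.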

How the data were processed

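IGF2BP3 LACE-seq of OE-19 cells was available as 2 peak lists, 1 per replicate, from a single group. Per the study's methods, reads left after removal of pre-rRNA were aligned to hg38 with Bowtie, which does not cross splice junctions, and peaks were called with Piranha. The submitters' processing notes instead list fastp, HISAT2 and MACS2, and the deposited files have the narrowPeak layout of MACS2. Versions are not given in the sources used here. Peaks were called per replicate, with no strand.

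The authors deposited, for each peak, a fold enrichment (a ratio of the summit over the local background), a p-value and a q-value on the −log10 scale, and a score that repeats the q-value and was not used. Reads per library are unknown. The summit pileup was recovered as the whole number of reads that gives both the deposited fold and p-value under a Poisson distribution, for all 21142 and 20799 peaks.

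Peaks sharing at least 1 bp with the span of a listed gene (GENCODE 44) were members. Replicate peaks were paired when they shared at least 1 bp. Each summit took the first class that any transcript of the gene gave it, going from CDS through 3′ UTR, 5′ UTR and other exon to intron. In the comparison set of all peaks on protein-coding genes, a peak over several genes went to a member if one was among them and otherwise to the gene giving the earliest class. Percentiles were taken within each list. GGAC, UGGAC and DRACH were searched on the gene strand within 50 nt of the summit, and the opposite strand was not searched. Intervals are Wilson 95% and, like the limits given for a count of 0 (3 counts of the total), cover counting error only. With 1 group and 2 replicates no test was run, and errors are SD over replicates. Genes named were the 10 members, METTL16 and the 3 of 20 further m6A genes with the most overlapping pairs. The members, lists and alternatives were chosen with earlier results of these data known. Alternatives changed the peak threshold, the rule placing peaks on genes, the overlap rule, the peak position, the transcripts, the distances and windows, the strength measure and which replicates entered. Python 3.11.15, SciPy 1.17.1 and pandas 2.3.3 were used, and the scripts were tested on simulated data.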

Additional observations from a re-analysis of the deposited data

How the results depend on the processing

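Of 127 values of 13 results under 18 settings, 96 moved by less than 1 SD between replicates (counts by less than 1.5 times) and 31 moved further. The 96 are no measure of stability. Shares and percentiles from 1 replicate alone could only fall among them, since each of 2 replicates lies within 1 SD of their mean. The 31 are no measure of change either, since some SDs were near 0. The share near stop codons was 5.88% with an SD of 0, so a move to 5.90% counted. DRACH was 73.8% with an SD of 0.162, so a move to 73.2% counted. Requiring an exon under the peak or a single-copy summit 31-mer changed no value, since all member peaks met both. Among peaks with a −log10 q of at least 10, shares were 68.6% in CDS, 8.12% near stop codons, 33.1% with GGAC, 2.94% with UGGAC and 65.7% with DRACH. Requiring the summit inside the gene gave 73.2% with DRACH. Without peaks over another gene, 6.70% lay near stop codons, 33.8% held GGAC and 76.1% DRACH. Requiring summits within 50 bp left 3 members with a pair and 33.6% of peaks paired. From the peak's middle, shares were 5.90% near stop codons, 35.8% with GGAC and 88.2% with DRACH. The share near stop codons was 2.94% with canonical transcripts, 2.94% at 100 nt and 11.8% at 400 nt. Windows of 25 nt on each side gave 28.4% with GGAC and 69.0% with DRACH, and windows of 100 nt gave 47.1% with GGAC, 21.4% with UGGAC and 97.4% with DRACH. A wider window offers more positions for a match. Motif shares over all peaks are given only for windows of 50 nt around the summit, so the shares under other settings have no background here. Without VIRMA and ZC3H13, chosen after seeing the data, there were 3 members with a pair and 7 peaks per replicate, with 42.9% in CDS, 28.6% in 3′ UTRs, 0% in introns, 7.14% near stop codons, 50% with GGAC, 0% with UGGAC and 57.1% with DRACH.

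With either replicate alone, peaks ranged from 19 to 23, overlap from 52.2 to 63.2%, CDS from 52.6 to 65.2%, 3′ UTR from 8.70 to 15.8%, 5′ UTR from 0 to 15.8%, intron from 10.5 to 21.7%, the median percentile from 55.1 to 74.8, GGAC from 36.8 to 39.1%, UGGAC from 5.26 to 8.70% and DRACH from 73.7 to 73.9%, and 5.88% lay near stop codons in each. No paired analysis was possible because the series has 1 group. With 19 to 23 peaks per replicate, intervals of a share span about as much as many of the differences given, and reads per library are unknown.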

Other observations

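WTAPP1, a transcribed copy of WTAP on chromosome 11, was looked up because WTAP itself had little signal. Peaks in its span overlapped between replicates at 2 places, with folds of 13.8 and 14.6 at the stronger one. MMP1 lies under both places, and 0% of the 31-mers of these peaks occur in the exons of WTAP, so the peaks do not hold sequence of the WTAP mRNA. This look-up was made after the data had been seen.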
